A study of Mus musculus with 18 samples.

Results

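The genes described here encode the proteins of the mitochondrial ribosome. They were taken as every gene symbol beginning with Mrpl or Mrps followed by a digit that had a probe set of its own, that is, a probe set annotated to exactly 1 gene. This gave 71 genes of the 22180 that had such a probe set, 43 with Mrpl names and 28 with Mrps names. All 71 also passed the filter on low signal and so belonged to the 16337 genes tested. Another 7 symbols, Mrpl30, Mrpl33, Mrpl41, Mrpl43, Mrpl44, Mrpl53 and Mrps6, were present only on probe sets shared with other genes and were not measured separately.

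Mitochondrial ribosomes are built from 2 ribosomal RNAs made inside the mitochondrion and from proteins that are all encoded in the nucleus, made in the cytosol and imported. They translate the few proteins of the mitochondrial genome, which are core subunits of the respiratory chain and the ATP synthase. Some of their proteins have a counterpart in bacterial ribosomes and others are found only in mitochondria. Acute myeloid leukemia cells are known to depend on mitochondrial translation, and tetracycline antibiotics such as doxycycline are known to inhibit it.

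Expression was measured on 18 whole-transcript arrays of mouse bone marrow cells, 3 arrays in each of 6 groups. The AML cells were GFP-positive leukemia cells driven by the MLL-AF9 fusion and the LSK cells were normal stem and progenitor cells, lineage-negative and positive for c-Kit and Sca1. Both were sorted from 4F mice, which carry a Dox-inducible transgene for Oct4, Sox2, Klf4 and c-Myc (OSKM), so that the control cells carried the transgene too. The groups were AML Dox, AML Compound and AML Control, and LSK Dox, LSK Compound and LSK Control. Dox cells were given doxycycline to induce OSKM, and Compound cells were given a reprogramming cocktail listed as VPA, CHIR, 616452 and TCP, each for 24 h in culture. No time was recorded for the control arrays. Whether control cells spent 24 h in culture or received a vehicle was not established here. An effect of time in culture therefore cannot be told apart from one of treatment. No group held doxycycline without the transgene, so an effect of doxycycline itself and an effect of OSKM cannot be told apart. Neither the age of the mice nor the promoter of the transgene is given in the sources used here. The labels call the arrays biological repeats but do not say whether each came from its own animal or culture. The p-values therefore cover only the spread among these arrays, part of which may be technical.

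LSK Compound replicate 1 stood apart and was left out of the fit. Its values correlated with those of the other arrays at r of 0.638 to 0.672, whereas the other 17 correlated at 0.979 to 0.989 within groups and 0.904 to 0.979 across groups. The other LSK Compound arrays differed from the rest in sex-linked genes: Xist was at 7.35 and 7.32 on them, against 9.28 to 9.56 on LSK Control, and Y-linked Eif2s3y was at 5.47 and 5.20, against 1.50 to 2.02. The animals behind the LSK Compound arrays and the compounds therefore cannot be told apart. Xist also separated the cell types, at 2.34 to 3.02 on the AML arrays against 9.28 to 9.77 on LSK Control and LSK Dox. Y-linked Eif2s3y was at 1.95 to 2.13 on AML Control and 2.01 to 2.29 on AML Dox. These levels were below the filter level, as were those of Kdm5d and Uty, so the sex of the AML animals is not read from these genes. Whether AML and LSK cells came from like animals is not known. Cell type and animals thus cannot be told apart where AML is set against LSK. In AML Compound, Y-linked Eif2s3y, Kdm5d and Uty lay above AML Control but near the filter level, with Eif2s3y at 2.34 to 2.64 against 1.95 to 2.13. The reason was not tested. Of the induced factors, Klf4 was at 9.06 to 9.21 on AML Dox arrays, against 3.12 to 3.39 on AML Control, and at 8.15 to 8.30 on LSK Dox arrays, against 3.72 to 3.95 on LSK Control. Pou5f1 (Oct4) was at 3.30 to 3.73 in AML Dox against 2.77 to 2.99 in AML Control, and overlapped between the LSK groups, at 2.78 to 3.44 in LSK Dox against 2.81 to 3.07 in LSK Control. Sox2 was at 3.60 to 4.56 in AML Dox against 2.58 to 2.89 in AML Control, and overlapped in LSK cells too, at 2.48 to 3.23 in LSK Dox against 2.38 to 2.70 in LSK Control. Myc was lower in both cell types and is described below. Whether the probe sets read the transgene was not tested. The mean level of 7 stem and progenitor markers was 3.72 to 3.79 in AML Dox and 5.39 to 5.42 in AML Compound against 4.85 to 4.93 in AML Control, and 6.02 to 6.07 in LSK Dox and 6.26 to 6.47 in LSK Compound against 5.58 to 5.70 in LSK Control. In AML Dox, Kit, Cd34 and Gata2 lay below AML Control, at 3.0 to 3.89 against 6.16 to 6.28, 3.17 to 3.86 against 8.63 to 8.74 and 4.52 to 4.85 against 6.03 to 6.22. Procr, Mecom and Hlf lay above it, at 3.33 to 3.56 against 2.98 to 3.04, 5.77 to 6.07 against 5.18 to 5.40 and 3.10 to 3.33 against 2.73 to 2.94, and Slamf1 overlapped. In LSK Dox, Procr (6.40 to 6.77 against 3.61 to 3.91), Mecom and Hlf lay above LSK Control. Kit (6.89 to 7.02 against 7.66 to 7.76), Cd34 and Gata2 lay below it, and Slamf1 overlapped. In LSK Compound, Kit, Slamf1 and Procr lay above LSK Control, Cd34 lay below it, and Mecom, Hlf and Gata2 overlapped. The mean level of 6 monocyte and macrophage markers was 3.74 to 3.90 in AML Dox and 7.09 to 7.20 in AML Compound against 4.49 to 4.62 in AML Control, and 7.36 to 7.41 in LSK Compound against 5.17 to 5.37 in LSK Control. In LSK Compound, Cd68, Adgre1, Ms4a7 and Cd14 lay above LSK Control. Csf1r and Ly86 lay below it, at 5.40 and 5.29 against 5.74 to 5.88 and 5.17 and 5.09 against 5.54 to 5.92. The mean of 7 neutrophil markers was 3.94 to 4.16 in AML Dox and 4.02 to 4.10 in AML Compound against 4.69 to 4.74 in AML Control. In AML Dox only Elane (7.51 to 7.78 against 9.55 to 9.69) and Mpo (6.81 to 7.11 against 10.54 to 10.55) lay below AML Control. S100a9 lay above it and S100a8, Ngp, Camp and Ltf overlapped. In AML Compound Elane, Mpo and S100a8 lay below AML Control and the others overlapped. The mean was 6.15 to 6.22 in LSK Dox and 4.19 to 4.26 in LSK Compound against 7.22 to 7.54 in LSK Control, with each marker below LSK Control in both. The mean of 5 mast cell and basophil markers was 2.23 to 2.33 in AML Dox against 2.70 to 2.87 in AML Control, with AML Compound inside that control range, and 2.73 to 2.91 in LSK Dox and 3.66 to 3.68 in LSK Compound against 4.15 to 4.31 in LSK Control. In LSK Compound, Cpa3 lay above LSK Control, at 8.30 and 8.31 against 6.60 to 6.71. Mcpt8 lay below it, at 2.585 and 2.739 against 5.72 to 6.08, as did Fcer1a and Ms4a2, and Prss34 overlapped. Cpa3 lay above and Mcpt8 below the controls in AML Compound too. The mean of 4 megakaryocyte markers ran between 3.02 and 4.16 over all groups. In LSK Compound, Pf4 lay above LSK Control, at 6.77 and 7.55 against 4.03 to 4.22, while Itga2b, Gp9 and Vwf lay below it. The 4 defining erythroid markers averaged 2.40 to 2.97 over all groups, B cell markers 2.15 to 2.67 and T and NK cell markers 2.10 to 2.49, close to the filter level. The part of these differences in cell state in the results below was not tested. In RNA from whole samples, fewer cells of a type and less RNA per cell cannot be told apart.

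All levels are log2 values normalised by RMA (robust multi-array average), so a difference of 1 is a 2-fold change, and levels are compared between groups for 1 gene and not between genes. A gene was called higher or lower where limma's moderated test gave a Benjamini-Hochberg adjusted p under 0.05 over the 16337 genes. Within groups, the pooled SD of a mitochondrial ribosomal protein gene had a median of 0.13 and ran between 0.06 and 0.29. The difference between a gene's highest and lowest group mean had a median of 0.97.

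Mitochondrial ribosomal protein genes were lower in AML cells given Dox, with few exceptions. In AML Dox against AML Control, 57 of 71 were called lower and 3 higher, and 27 were lower by at least 2-fold. Of all genes tested, 25.6% were called lower, 23% higher and 10.3% lower by at least 2-fold in this comparison. All AML Dox arrays lay below all AML Control arrays for 58 of the 71 genes, against 29.4% of all genes. The median log2 difference was -0.84 over the 71 genes, against -0.01 over all genes. The median level of the 71 genes was 5.17, 5.11 and 5.16 on the AML Dox arrays, against 6.06, 6.04 and 6.12 on the AML Control arrays. AML Dox had the lowest mean of the 6 groups for 57 of the 71 genes. That count was not made over all genes, so nothing particular to the set is read from it.

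**Figure D1:**
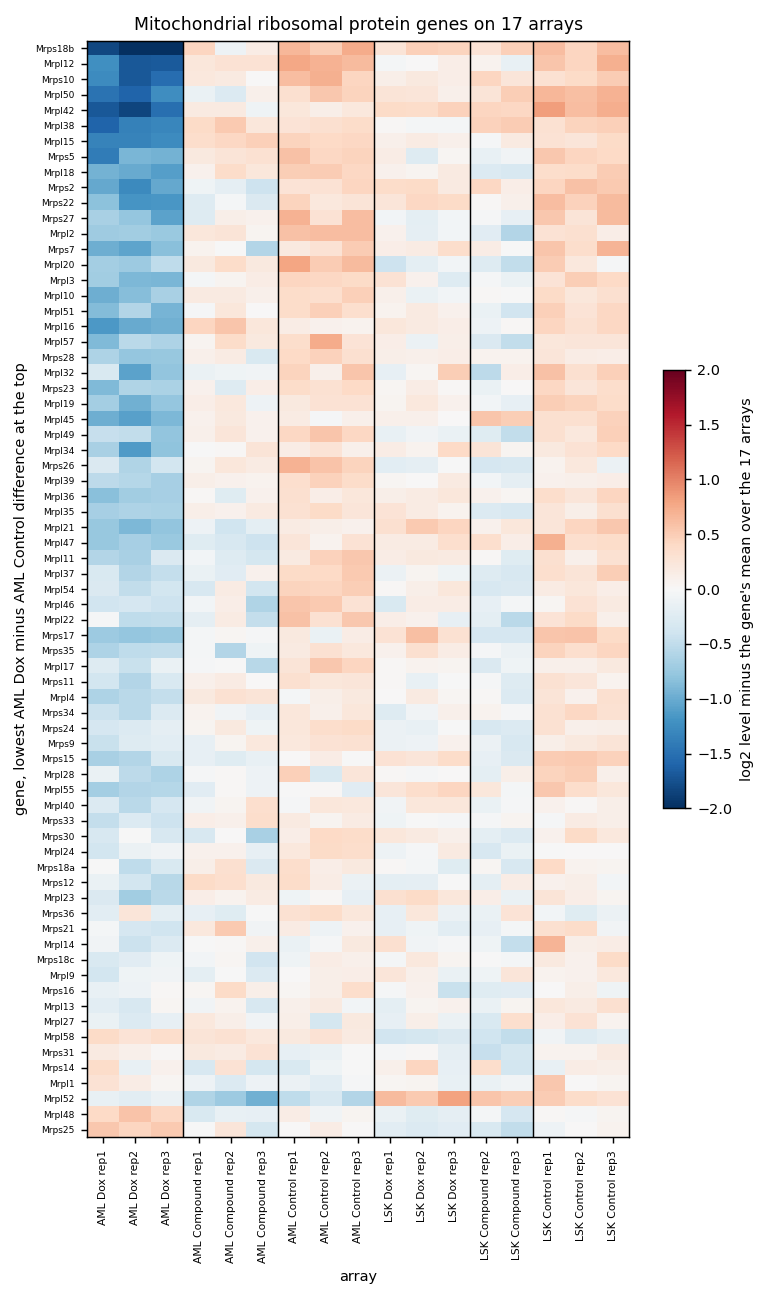
Log2 level of each of the 71 mitochondrial ribosomal protein genes on 17 arrays, minus the gene's mean over those arrays (colour), with genes down the page from the lowest to the highest AML Dox minus AML Control difference and arrays grouped left to right. The 3 AML Dox columns are blue for most genes, while Mrps25, Mrpl48 and Mrpl52 at the bottom were called higher in AML Dox than in AML Control.

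The lowest value belonged to Mrps18b, 1 of 3 mitochondrial relatives of the bacterial protein S18. Its level was 4.37, 4.12 and 4.12 on the AML Dox arrays, against 6.85, 6.68 and 6.93 on the AML Control arrays. The groups were more than 2 log2 units apart with no overlap, and the difference was -2.62 (SE 0.13, limma adjusted p = 1.2e-11), a 6.14-fold lower level. A second probe set for Mrps18b gave -2.52. Mrpl12, the counterpart of the bacterial L7/L12 stalk protein that recruits translation factors, and also reported to bind the mitochondrial RNA polymerase, was at 4.67, 4.21 and 4.22 in AML Dox against 6.67, 6.61 and 6.54 in AML Control. It was 4.72-fold lower (log2 difference -2.24, SE 0.12, limma adjusted p = 3.33e-11). Its second, dimmer probe set gave -1.23. Mrps10, the S10 counterpart in the small subunit, was at 4.23, 3.79 and 3.96 in AML Dox against 6.11, 6.19 and 5.92 in AML Control. Its difference was -2.08 (SE 0.11, limma adjusted p = 4.85e-11). For each of these 3 genes every AML Dox array lay below every other array of the 17.

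**Figure D2:**
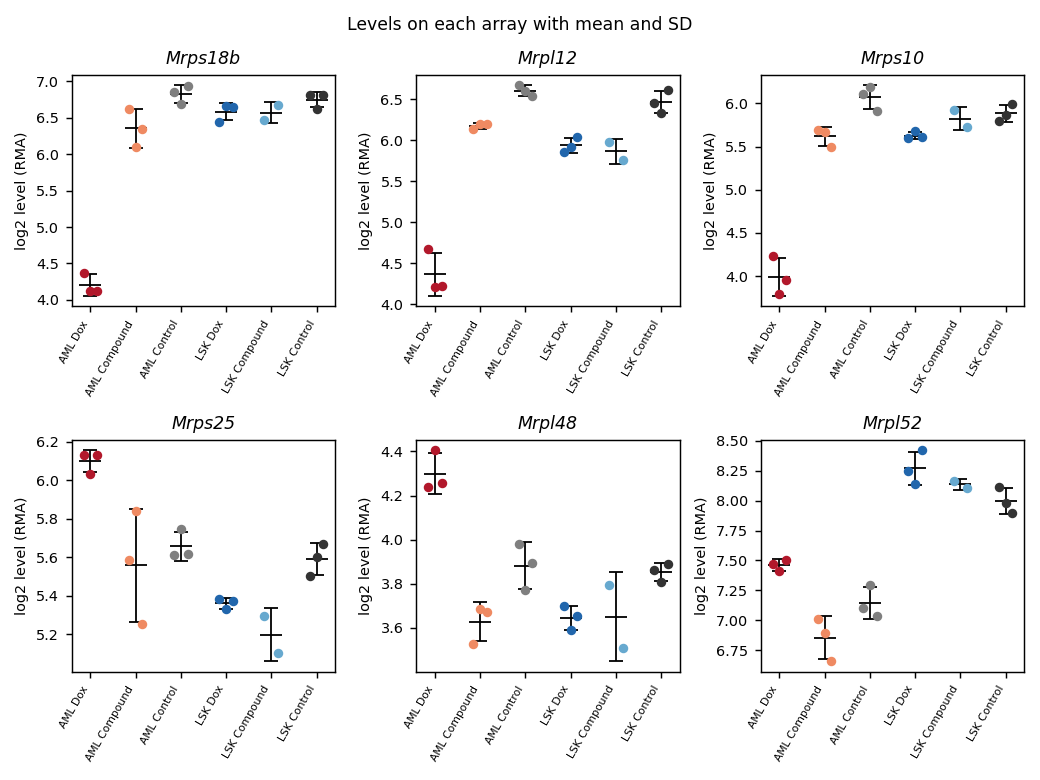
Log2 RMA level on each array (points) with the mean and SD of the group (bars) for the 3 genes lowest and the 3 genes higher in AML Dox than in AML Control. Mrps18b, Mrpl12 and Mrps10 were below 5 on the AML Dox arrays and above 5 in every other group, whereas Mrps25 and Mrpl48 were highest in AML Dox and Mrpl52 was higher in all LSK groups than in all AML groups.

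Genes for proteins of both subunits were among those called lower. In the large subunit, 36 of 44 genes were lower and 2 higher, with a median difference of -0.93. Mrpl50 and Mrpl42, both found only in mitochondrial ribosomes, followed Mrps10 with differences of -1.88 (SE 0.12) and -1.87 (SE 0.10). Mrpl50 was at 5.33, 5.20 and 5.57 in AML Dox against 7.12, 7.34 and 7.26 in AML Control, and Mrpl42 was at 3.83, 3.69 and 4.03 against 5.76, 5.64 and 5.75. Of the 28 large-subunit genes with a bacterial counterpart 23 were lower and none higher, and of the 16 found only in mitochondria 13 were lower and 2 higher. In the small subunit, with the S18 family counted in it, 20 of 26 genes were lower and 1 higher, with a median of -0.64. This count includes Mrps18a, whose protein sits in the large subunit. Of the 26, 11 of 14 with a bacterial counterpart were lower, as were 7 of 9 found only in mitochondria. A difference between the subunits was not tested.

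The S18 family itself was uneven. Mrps18b, whose protein sits in the small subunit, had the 6.14-fold lower level given above. Mrps18a, which despite its name sits in the large subunit, was at 6.01, 5.52 and 5.72 in AML Dox against 6.37, 6.15 and 6.22 in AML Control and was called lower (-0.49, SE 0.16, limma adjusted p = 0.0163). Mrps18c, the family member at the bacterial S18 position, was at 3.65, 3.73 and 3.86 against 3.87, 4.10 and 4.06. The groups did not overlap, but the difference of -0.26 (SE 0.12) was not called (limma adjusted p = 0.078), and its dimmer second probe set gave 0.11. Mrps30, another large-subunit protein with a small-subunit name, was lower by -0.51 on the log2 scale (SE 0.14, limma adjusted p = 0.00548). Mrps36, which is now regarded as part of the 2-oxoglutarate dehydrogenase complex and not of the ribosome, was near the filter level on all arrays and overlapped between the groups, at 2.03, 2.48 and 2.04 against 2.54, 2.60 and 2.46 (-0.35, SE 0.14, limma adjusted p = 0.0465). Without Mrps36, 56 of 70 genes were lower and the median was -0.86.

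Few genes of the set departed from this direction. Mrps25, a small-subunit protein found only in mitochondria, was at 6.13, 6.03 and 6.13 in AML Dox against 5.61, 5.75 and 5.62 in AML Control. All AML Dox arrays lay above all AML Control arrays, a difference of 0.44 (SE 0.12, limma adjusted p = 0.00411). Mrpl48 was at 4.24, 4.41 and 4.26 against 3.98, 3.77 and 3.89, a difference of 0.42 (SE 0.09, limma adjusted p = 0.00104). Mrpl52 was at 7.47, 7.41 and 7.50 against 7.10, 7.29 and 7.03, a difference of 0.32 (SE 0.11, limma adjusted p = 0.0194). Both are large-subunit proteins without a bacterial counterpart, and for both the groups did not overlap. Mrpl39 and Mrpl24, both of the large subunit, were lower by -0.97 and -0.50 on the log2 scale (SE 0.08 and 0.11), and Mrps15, the S15 counterpart, by -0.56 (SE 0.09). The 11 genes not called included Mrpl58, a release factor built into the large subunit that frees stalled ribosomes, at 7.51, 7.39 and 7.48 against 7.32, 7.41 and 7.31 (0.12, SE 0.08). They also included Mrps14 and Mrpl27, whose levels of 2.67 to 3.18 and 2.40 to 2.54 in AML Dox were near the filter level. Mrps12, which forms part of the decoding centre, was lower by -0.48 on the log2 scale (SE 0.13, limma adjusted p = 0.00528).

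For 9 of the 71 genes a second probe set was available, and the brighter one was used. The second probe set of Mrpl10 gave 0.09 where the first gave -1.22 in AML Dox against AML Control, and that of Mrps5 gave -0.16 where the first gave -1.57. In both cases the second probe set was dimmer, with a mean of 3.82 against 6.61 for Mrpl10 and 2.87 against 6.18 for Mrps5. The remaining pairs, other than that of Mrps18c, had the same sign in this comparison.

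LSK cells given Dox showed smaller differences in the same direction. In LSK Dox against LSK Control, 14 of 71 genes were called lower and none higher by limma. In either direction, 30 had an unadjusted limma p under 0.05. The share of all genes at that unadjusted threshold is not given here, so nothing is read from the 30. Of all genes tested 9.93% were called lower and 9.21% higher. The median difference was -0.22 over the 71 genes, against -0.05 over all genes. None was lower by 2-fold, against 0.422% of all genes, and 38 had all LSK Dox arrays below all LSK Control arrays, against 21.5%. Mrps27, a small-subunit protein of the pentatricopeptide repeat family, had the lowest value. It was at 4.41, 4.26 and 4.40 in LSK Dox against 4.99, 4.72 and 5.09 in LSK Control, a difference of -0.58 (SE 0.14, limma adjusted p = 0.00725). Mrpl12 was at 5.86, 5.91 and 6.04 against 6.46, 6.34 and 6.61, a difference of -0.53 (SE 0.12, limma adjusted p = 0.00386). Neither gene overlapped between the groups. The second, dimmer probe set of Mrpl12 gave -0.16 in LSK Dox. Mrps5, Mrpl49 and Mrpl20 followed with -0.48, -0.46 and -0.45. Without LSK Dox replicate 2, 9 genes were called lower, and when the left-out array entered the fit none was. That array cut the calls over all genes as well, from 1623 of 16337 lower to 125 of 16583.

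The response to Dox differed between the cell types. The AML difference minus the LSK difference was called lower for 48 of the 71 genes and higher for 4, against 21.5% and 18.6% of all genes tested, with a median of -0.66 against 0.00 over all genes. With the left-out array in the fit, 8 were lower and 1 higher. Of all 16583 genes tested in that fit, 1089 were lower and 1138 higher, where 3509 and 3038 had been without it. For Mrps18b, which was at 6.45, 6.66 and 6.64 in LSK Dox against 6.82, 6.62 and 6.81 in LSK Control with overlapping arrays, the AML response was lower by -2.45 on the log2 scale (SE 0.18, limma adjusted p = 7.78e-09). The corresponding values were -1.82 for Mrps10 (SE 0.16, limma adjusted p = 6.29e-08) and -1.71 for Mrpl12 (SE 0.17, limma adjusted p = 2.33e-07). Mrps25 and Mrpl48 responded the other way, by 0.67 (SE 0.17) and 0.62 (SE 0.13). Mrps25 was at 5.38, 5.33 and 5.37 in LSK Dox against 5.50, 5.60 and 5.67 in LSK Control, below every control array where AML Dox had been above every one. Mrpl1, of the stalk that releases spent tRNA, also had a higher response in AML, by 0.50 (SE 0.18, limma adjusted p = 0.0322), although neither of its own Dox differences was called. It was at 5.40, 5.42 and 5.21 in LSK Dox against 5.91, 5.38 and 5.42 in LSK Control, where replicate 1 stood above the others. Mrps31 was the last of the 4, at 0.37 (SE 0.12).

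**Figure D3:**
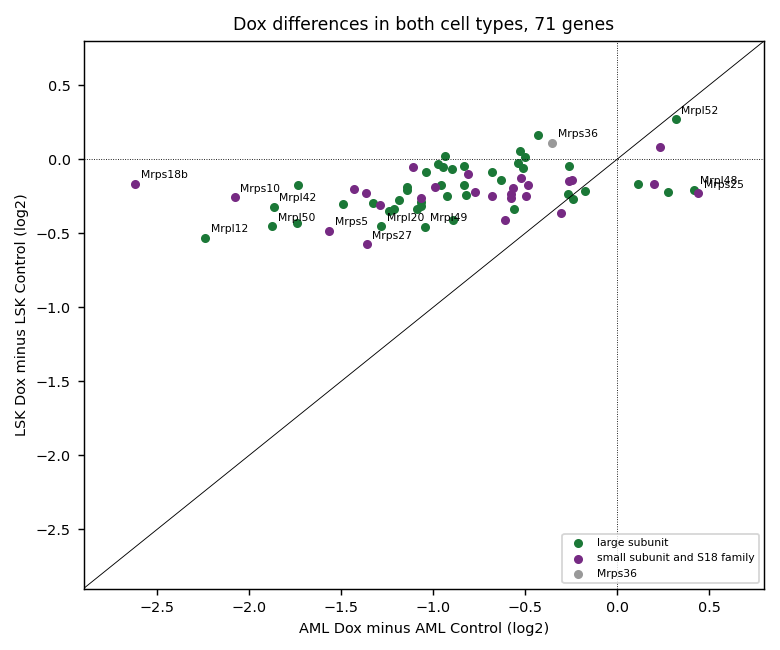
Log2 difference of Dox against control in LSK cells (vertical axis) against that in AML cells (horizontal axis) for the 71 genes, coloured by subunit, with the diagonal of equal differences. Most points lie left of the diagonal: AML differences reached -2.62 for Mrps18b, while the lowest LSK difference was -0.58 for Mrps27.

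The 14 genes lower in LSK Dox were all among the 57 lower in AML Dox, which is 100% of the LSK list and 24.6% of the AML list. With 57 of the 71 genes on the AML list, most of any 14 of the genes would be on it. The overlap over all genes tested was not counted, so nothing is read from the overlap. Across the 71 genes the AML and LSK Dox differences had a Spearman correlation of 0.48, against 0.38 over all genes. These comparisons share no array, but genes are not independent replicates. Mrpl49, Mrpl20 and Mrpl38 were lower in both, at -1.05, -1.28 and -1.74 in AML and -0.46, -0.45 and -0.43 in LSK.

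Part of the set was also lower in AML cells given the compound cocktail. In AML Compound against AML Control, 34 of 71 genes were called lower and 2 higher, against 19.2% and 12.8% of all genes, and the median was -0.25 against -0.03. None was lower by 2-fold, against 1.09% of all genes, and 43 had all AML Compound arrays below all AML Control arrays, against 24.6%. With the left-out array in the fit none was called in either direction. Of all 16583 genes tested in that fit, 539 were lower and 525 higher, where 3144 and 2088 had been without it. Without that array, the counts for the set ran between 26 and 34 lower when single arrays were left out. Mrpl22, which lines the exit tunnel of the nascent chain, was at 3.83, 4.18 and 3.54 in AML Compound against 4.59, 4.31 and 4.55 in AML Control, a difference of -0.64 (SE 0.17, limma adjusted p = 0.00627). Mrpl46 was at 4.03, 4.22 and 3.48 against 4.65, 4.61 and 4.37, a difference of -0.63 (SE 0.16, limma adjusted p = 0.00549). Mrpl54 was at 6.59, 7.08 and 6.55 against 7.36, 7.34 and 7.40, a difference of -0.63 (SE 0.12, limma adjusted p = 0.000437). Mrps30 and Mrpl11 were lower by -0.62 and -0.61 on that scale. For these 5 genes the groups did not overlap, but the AML Compound arrays were spread, with SDs of 0.15 to 0.38.

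The 2 genes higher in AML Compound were Mrps31 and Mrpl16. Mrps31, a small-subunit protein found only in mitochondria, was at 6.24, 6.22 and 6.34 in AML Compound against 5.89, 5.92 and 6.05 in AML Control, a difference of 0.31 (SE 0.09, limma adjusted p = 0.00861). Mrpl16, the L16 counterpart near the peptidyl transferase centre, was at 6.75, 6.89 and 6.56 against 6.48, 6.42 and 6.40, a difference of 0.30 (SE 0.09, limma adjusted p = 0.018). Leaving out AML Control replicate 2 or 3, or AML Compound replicate 1 or 2, ended the call of 1 of them. Mrps18b and Mrps10 were lower by -0.47 and -0.45 in AML Compound, but the second probe set of Mrps18b gave -0.05.

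Part of the set was also lower on the 2 LSK Compound arrays, for which the compounds and the animals cannot be told apart. In LSK Compound against LSK Control, 36 of 71 genes were called lower and none higher by limma. In either direction, 46 had an unadjusted limma p under 0.05. The share of all genes at that unadjusted threshold is not given here, so nothing is read from the 46. Of all genes 20% were called lower and 14.2% higher, and the median was -0.32 against -0.05. None was lower by 2-fold, against 3.26% of all genes, and 54 had both LSK Compound arrays below all LSK Control arrays, against 31.7%. Without LSK Compound replicate 3, which leaves 1 LSK Compound array assumed to vary like the other groups, 20 were called lower. With the left-out array, 25 were lower at a median of -0.69, and 2112 of all 16583 genes were lower at a median of 0.03. The lowest was Mrps17, the S17 counterpart, at 5.52 and 5.53 in LSK Compound against 6.42, 6.43 and 6.24 in LSK Control, a difference of -0.84 (SE 0.12, limma adjusted p = 1.78e-05). Mrps15 was at 8.35 and 8.23 against 9.03, 9.04 and 8.97, a difference of -0.72 (SE 0.10, limma adjusted p = 2.92e-05). Mrpl49 was at 5.67 and 5.44 against 6.25, 6.14 and 6.40, a difference of -0.71 (SE 0.12, limma adjusted p = 0.000115). Mrpl18, which in the ribosome accompanies the small structural RNA of the central protuberance, was at 6.76 and 6.71 against 7.39, 7.39 and 7.54, a difference of -0.70 (SE 0.10, limma adjusted p = 2.08e-05). Mrpl32 followed with -0.65.

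The AML Compound difference minus the LSK Compound difference was called for few of the genes, and on its LSK side the compounds and the animals cannot be told apart. It was called higher for 6 of 71 and lower for 1, against 8.69% and 8.37% of all genes, with a median of 0.12 against 0.02. The share called higher was near that of all genes and the share called lower was below it, so nothing particular to the set is read from these counts. Mrps31 had the highest value, 0.83 (SE 0.13, limma adjusted p = 0.000154), having been at 5.59 and 5.70 in LSK Compound against 6.13, 6.12 and 6.23 in LSK Control, below where in AML it was above. Mrps17 followed with 0.76 (SE 0.15, limma adjusted p = 0.00193), at 5.82, 5.90 and 5.85 in AML Compound against 6.06, 5.73 and 6.01 in AML Control. Mrpl16 had 0.72 (SE 0.14, limma adjusted p = 0.00112). Mrps36 was the gene with a lower response, -0.64 (SE 0.21, limma adjusted p = 0.0444), at levels near the filter. Without LSK Compound replicate 3, 3 were higher and none lower, at a median of 0.06.

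**Figure D4:**
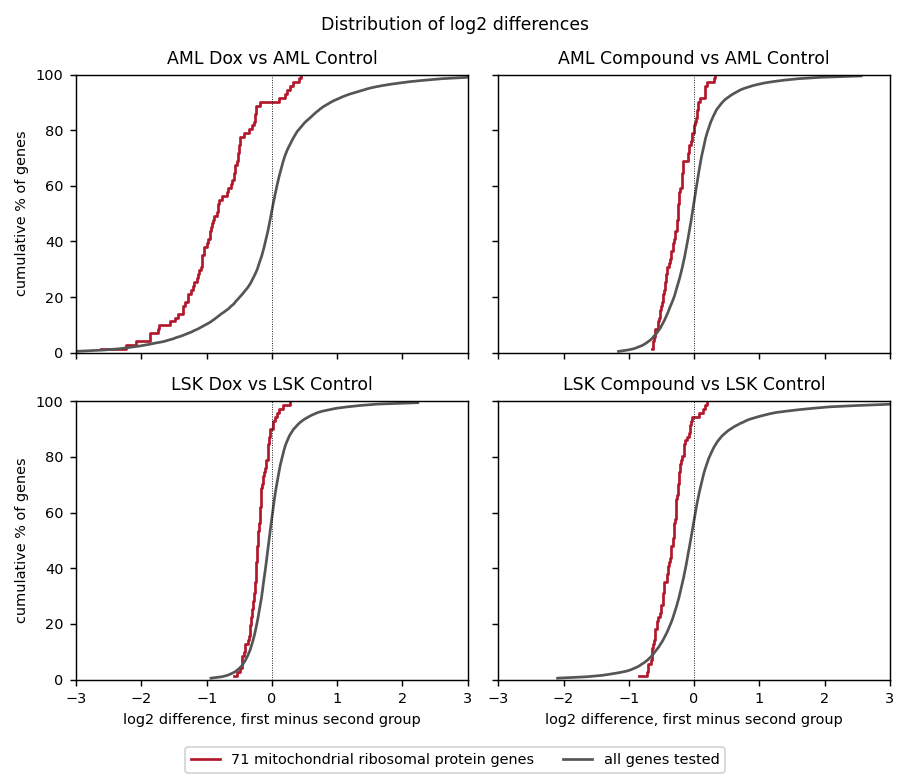
Cumulative percentage of genes (vertical axis) by log2 difference (horizontal axis) for the 71 mitochondrial ribosomal protein genes and all genes tested, in the 4 treatment comparisons. The medians of the 71 genes were -0.84 in AML Dox, -0.25 in AML Compound, -0.22 in LSK Dox and -0.32 in LSK Compound, left of the curve of all genes in each panel.

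Set directly against each other in AML cells, Dox gave lower levels than the cocktail. In AML Dox against AML Compound, 47 of 71 genes were lower and 4 higher, against 24.7% and 23% of all genes, with a median of -0.58 against -0.01. With the left-out array in the fit, 25 were lower and 1 higher, against 1849 and 2039 of all 16583 genes. Mrps18b was at 6.62, 6.09 and 6.34 in AML Compound and had the largest of these differences, -2.15 (SE 0.13, limma adjusted p = 1.89e-10). Mrpl12 and Mrpl38 followed with -1.81 (SE 0.12) and -1.80 (SE 0.10). Mrpl48, at 3.53, 3.69 and 3.67 in AML Compound, was higher in AML Dox by 0.67 (SE 0.09, limma adjusted p = 8.88e-06), and Mrpl52, Mrps25 and Mrpl1 by 0.61, 0.54 and 0.32.

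In LSK cells few of the corresponding differences were called, and on the LSK Compound side the compounds and the animals cannot be told apart. In LSK Dox against LSK Compound 2 genes were lower and 9 higher, against 14.3% and 18% of all genes, with a median of 0.13 against 0.03. Both shares were below those of all genes, so nothing particular to the set is read from these counts. Mrpl38 and Mrpl45 were lower in LSK Dox, by -0.50 (SE 0.11) and -0.45 (SE 0.09) on the log2 scale. Mrpl38 was at 6.33, 6.26 and 6.26 in LSK Dox against 6.77 and 6.80 in LSK Compound. Both differences changed sign with the left-out array in the fit and were then not called. Mrps17, Mrps15 and Mrpl35 were the highest, by 0.74, 0.53 and 0.46. Without LSK Compound replicate 3, 5 were higher.

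Untreated AML and LSK cells differed little in the set. In AML Control against LSK Control 8 genes were lower and 7 higher, against 14.2% and 15.4% of all genes, and both medians were near 0, at 0.02 and 0.00. Mrpl52 had the largest difference, at 7.10, 7.29 and 7.03 in AML Control against 8.12, 7.98 and 7.90 in LSK Control, which is -0.85 (SE 0.11, limma adjusted p = 8.17e-06) with no overlap. Mrpl42 was at 5.76, 5.64 and 5.75 against 6.36, 6.15 and 6.27 (-0.54, SE 0.10, limma adjusted p = 0.000485). Mrps15, Mrpl55 and Mrps17 followed with -0.45, -0.44 and -0.43. Mrps26 was the highest, at 7.15, 7.04 and 6.90 against 6.52, 6.67 and 6.34 (0.52, SE 0.11, limma adjusted p = 0.00131). Mrps36, Mrpl20, Mrpl58 and Mrpl2 followed with 0.44, 0.41, 0.40 and 0.36, and Mrpl24 and Mrpl39 were higher by 0.31 and 0.28. Leaving out single arrays moved these counts to between 5 and 9 lower and between 3 and 9 higher. AML Control replicate 2 (5 lower, 4 higher), LSK Control replicate 2 (4 higher) and LSK Control replicate 3 (3 higher) moved them most, and quantile normalization gave 4 higher.

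Mrpl12 and Mrps27 were among the genes called lower in each of the 4 treatments, where the Dox and Compound comparisons of a cell type share their control arrays. Mrpl12 had -2.24 in AML Dox, -0.43 in AML Compound, -0.53 in LSK Dox and -0.60 in LSK Compound. Mrps27 had -1.36, -0.55, -0.58 and -0.57 in the same order. Their LSK Dox and LSK Compound values were thus close to each other, and their AML Dox values were the lowest. The second, dimmer probe set of Mrpl12 gave -0.47 in AML Compound, but -0.16 in LSK Dox and -0.04 in LSK Compound.

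The other parts of mitochondrial gene expression were read from 8 gene lists. Of all genes tested, 25.6% were called lower and 23% higher in AML Dox against AML Control. Among the 3 tested mitoribosomal proteins with other names all 3 were lower in AML Dox against AML Control: Ptcd3 by -2.02 on the log2 scale (SE 0.12), Gadd45gip1 by -1.13 (SE 0.11) and Dap3, which binds GTP in the small subunit, by -0.51 (SE 0.12). Of 16 translation and rescue factors 11 were lower and 2 higher, with a median of -0.67. Lrpprc, which stabilises mitochondrial messenger RNAs, had -2.18 (SE 0.12, limma adjusted p = 5.54e-11), the elongation factor Tufm -1.41 (SE 0.11) and the elongation factor Gfm1 -0.90 (SE 0.09). Of 19 mitochondrial aminoacyl-tRNA synthetases and related amidotransferase subunits, which charge the tRNAs, 17 were lower and none higher, with a median of -0.79, and Yars2 had -2.46 (SE 0.12, limma adjusted p = 9.87e-12). Of 28 assembly and ribosomal RNA modification factors 17 were lower and 3 higher, with a median of -0.45. C1qbp, an abundant matrix protein needed for mitochondrial translation, had -3.0 (SE 0.10, limma adjusted p = 1.67e-13), and the assembly factors Fastkd2 and Noa1 had -2.14 and -1.79. Trmt10c, of the complex that cuts tRNAs out of mitochondrial transcripts, was higher by 0.61. Of 11 genes of mitochondrial transcription and DNA maintenance 8 were lower and 1, Mterf2, was higher by 0.95.

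Transcripts of the mitochondrial genome itself were mostly not called. Of 10 measured, none was called in either direction by limma in AML Dox, with 2 at an unadjusted p under 0.05, and their median was 0.14. ND5, a subunit of complex I, averaged 12.177 in AML Dox and 11.996 in AML Control (SD 0.02 and 0.06, n = 3 each), a difference of 0.18 (SE 0.08, limma adjusted p = 0.057). In AML Compound 1 of the 10, COX3, was higher by 0.27 (SE 0.08, limma adjusted p = 0.0162), and limma called none of them in LSK Dox or LSK Compound, with 1 at an unadjusted p under 0.05 in each.

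Cytosolic ribosomal protein genes were lower in AML Dox as well. Of 59, 37 were called lower and none higher, with a median of -0.36, and Rpl34, Rps13 and Rpl14 had -1.84, -1.67 and -0.69. Of all genes tested, 25.6% were lower and 23% higher in that comparison. In AML Compound 6 were lower and 6 higher at a median of -0.03, both below the 19.2% and 12.8% of all genes. In LSK Dox 2 were lower and 1 higher at -0.01, below the 9.93% and 9.21% of all genes. In LSK Compound 23 were lower and none higher at -0.25, against 20% and 14.2% of all genes. Many of these genes have near-identical copies elsewhere in the genome, so their single-gene values are uncertain.

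Regulators known to drive mitochondrial biogenesis were lower too. Of 9 tested, 7 were lower in AML Dox and none higher, against 25.6% and 23% of all genes tested. Myc was at 4.82, 4.72 and 4.16 in AML Dox against 8.63, 8.67 and 8.70 in AML Control, a difference of -4.10 (SE 0.14, limma adjusted p = 1.19e-13), although c-Myc is among the factors induced. Pprc1, a coactivator of nuclear genes for mitochondria, had -2.52 (SE 0.13), and Gabpb1 and Gabpa, the subunits of the ETS-family factor NRF2, had -1.07 (SE 0.11) and -0.79 (SE 0.10). Yy1 itself was not called (-0.07, SE 0.08). Myc was also lower in the other treatments, at 7.83, 7.82 and 7.61 in AML Compound (-0.92), by -0.60 in LSK Dox and by -0.81 in LSK Compound. In LSK Compound Nrf1, Gabpa and Yy1 had the smallest p, with -0.94, -0.85 and -0.58.

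In the other treatments fewer synthetases, translation factors and assembly factors were called. In AML Compound 11 of the 19 synthetases, 5 of the 16 translation factors and 10 of the 28 assembly factors were lower, against 19.2% of all genes, with Eral1, which binds the small ribosomal RNA, at -1.02 (SE 0.11, limma adjusted p = 1.26e-06). The methyltransferase Mettl15 was the 1 assembly factor higher there, by 0.60. In LSK Dox 6, 4 and 6 of these lists were lower and none higher, against 9.93% of all genes lower, with Tufm at -0.56 (SE 0.11, limma adjusted p = 0.00108). In LSK Compound 7, 6 and 10 were lower and none higher, against 20% of all genes lower, with Tfb1m, which methylates the small ribosomal RNA, at -0.83 (SE 0.12, limma adjusted p = 2.08e-05). Polg, the mitochondrial DNA polymerase, was lower by -1.45 (SE 0.14) in LSK Compound and by -0.90 (SE 0.13) in AML Compound.

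Promoter sequences were available for 62 of the 71 genes, from RefSeq on the mouse build GRCm38.p6, as windows of 250 bases before to 50 bases after a start. The letters of 4 motifs of factors known at mitochondrial genes, NRF1 (the capital letters of the Mrpl32 sequence), ETS (CCGGAAG), YY1 (AAGATGGCG) and the E-box read by Myc (CACGTG), were searched on both strands. Below are the 3 genes lowest in AML Dox, 2 that were higher, 3 that hold a match and 2 with a gene starting on the other strand, each running from 100 bases before to 30 after its start, or for the last pair of genes from 30 bases beyond the neighbour's start. Capitals mark a match on either strand.
Mrps18b (chr17:35916411-35916540, minus strand): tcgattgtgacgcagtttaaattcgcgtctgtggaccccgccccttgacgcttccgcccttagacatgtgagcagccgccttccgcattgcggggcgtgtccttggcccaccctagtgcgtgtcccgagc
Mrpl12 (chr11:120484537-120484666, plus strand): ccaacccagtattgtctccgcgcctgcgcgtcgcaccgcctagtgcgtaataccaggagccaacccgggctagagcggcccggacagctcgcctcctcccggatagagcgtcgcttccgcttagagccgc
Mrps10 (chr17:47369097-47369226, plus strand): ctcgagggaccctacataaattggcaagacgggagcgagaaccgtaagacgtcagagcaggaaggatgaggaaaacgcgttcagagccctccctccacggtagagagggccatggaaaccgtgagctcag
Mrps25 (chr6:92183994-92184123, minus strand): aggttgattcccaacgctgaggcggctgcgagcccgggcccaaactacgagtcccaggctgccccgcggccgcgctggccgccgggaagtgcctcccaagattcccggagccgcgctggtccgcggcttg
Mrpl52 (chr14:54426809-54426938, plus strand): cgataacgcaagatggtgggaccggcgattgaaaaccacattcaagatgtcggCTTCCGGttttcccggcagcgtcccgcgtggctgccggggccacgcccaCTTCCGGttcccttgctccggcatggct
Mrpl32 (chr13:14613008-14613137, minus strand): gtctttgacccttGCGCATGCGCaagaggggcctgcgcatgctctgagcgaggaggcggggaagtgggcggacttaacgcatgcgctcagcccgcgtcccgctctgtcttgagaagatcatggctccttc
Mrpl36 (chr13:73330909-73331038, plus strand): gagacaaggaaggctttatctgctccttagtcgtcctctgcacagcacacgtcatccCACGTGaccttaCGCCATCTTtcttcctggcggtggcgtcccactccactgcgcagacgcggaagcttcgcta
Mrps18a (chr17:46110904-46111033, plus strand): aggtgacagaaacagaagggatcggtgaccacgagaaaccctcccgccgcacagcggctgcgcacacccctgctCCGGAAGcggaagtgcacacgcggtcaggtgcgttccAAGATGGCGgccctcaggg
Mrpl46 (chr7:78783060-78783161, minus strand): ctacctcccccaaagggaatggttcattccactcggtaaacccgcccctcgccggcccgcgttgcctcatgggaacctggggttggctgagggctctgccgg
Mrps27 (chr13:99344648-99344815, plus strand): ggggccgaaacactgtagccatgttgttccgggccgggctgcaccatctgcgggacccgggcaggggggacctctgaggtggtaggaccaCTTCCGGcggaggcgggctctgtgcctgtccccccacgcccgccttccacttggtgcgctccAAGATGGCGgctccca

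Over the whole windows, the ETS letters were in 23 of the 62 genes (37.1%), against 16.2% of 12650 tested genes with a window. The YY1 letters were in 8 (12.9%), against 2.79%, and the NRF1 letters in 3 (4.84%), against 1.9%. The E-box letters were in 5 (8.06%), against 10.7%. The 8 genes with YY1 letters, among them Mrpl36, Mrpl42, Mrps18a and Mrps27, were all called lower in AML Dox, as were 49 of the 62 genes with a window. The ETS letters were in 16 of those 49 and in 5 of the 10 genes not called, and Mrpl52, which was higher, holds them both 47 bases before its start and 3 bases after it. These shares describe letters in a window and were not tested.

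Many of these genes start head to head with another gene. A gene on the other strand started within 500 bases upstream for 21 of the 62 (33.9%), against 15.1% of the tested genes with a window. Mrpl46 and Mrps11 start 42 bases apart and were both lower in AML Dox, by -0.83 (SE 0.16) and -0.68 (SE 0.10) on the log2 scale. Of the 19 other partners 10 were lower, 2 higher and 7 not called, with a median of -0.34, against 25.6% lower and 23% higher of all genes tested. Ptcd2, which starts 108 bases from Mrps27, had -1.78 (SE 0.11) beside -1.36 for Mrps27, and Tcp1, of the cytosolic chaperonin, which starts 238 bases from Mrpl18, had -1.45 (SE 0.07) beside -1.49. Other partners did not follow: Zfp189, 93 bases from Mrpl50, had 0.19 (SE 0.13, not called) beside -1.88, and Klc4, 141 bases from Mrpl2, was higher by 0.41 (SE 0.16, limma adjusted p = 0.0466) beside -1.33. Tmem63b was higher by 1.38 (SE 0.15) beside Mrpl14, which was not called at -0.27 (SE 0.16).

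**Figure D5:**
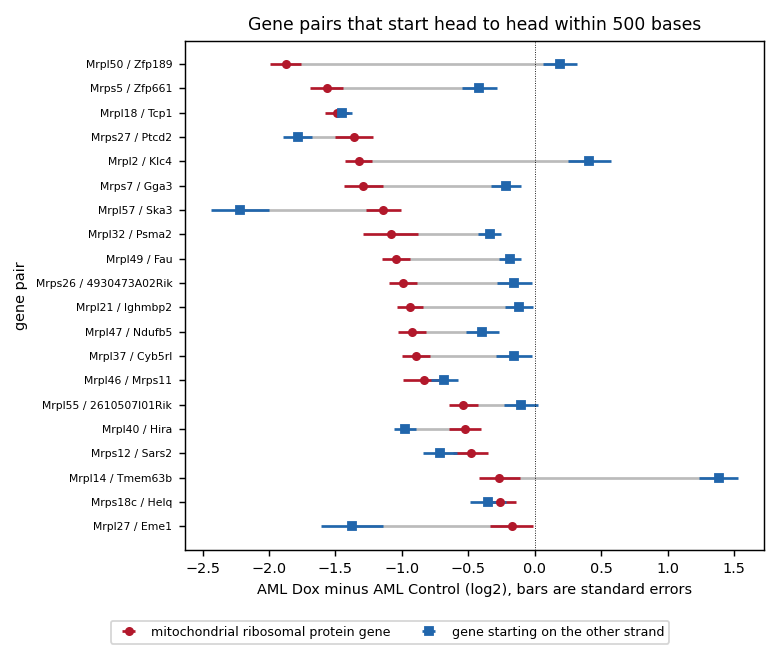
Log2 difference of AML Dox minus AML Control (horizontal axis, bars are standard errors) for each mitochondrial ribosomal protein gene (circle) and the gene that starts on the other strand within 500 bases (square), 1 pair per row. Tcp1 and Ptcd2 lie near their partners Mrpl18 and Mrps27, while Klc4 and Tmem63b lie above 0.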

How the data were processed

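The authors deposited log2 expression values per probe set for 18 arrays. They were made by RMA, per the submitters' processing notes; the sources used here give neither its version nor a genome build. Of 41345 probe sets, 23521 were annotated to exactly 1 gene in the platform annotation. Where a gene had several, the brightest on average over 17 arrays was used. Genes above the 40th percentile of an array on at least 3 arrays were tested. All 71 genes matched RefSeq by gene ID with the same symbol. LSK Compound replicate 1 was left out. Group means were fitted to the other 17 arrays with limma 3.58.1 in R 4.3.3 (lmFit, contrasts, eBayes), with Benjamini-Hochberg adjustment over 16337 genes and 11 residual degrees of freedom. The number of arrays limits the precision; arrays have no read depth. The procedure was tested on simulated data.

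Members and gene lists were chosen with earlier results of these data known. Genes named in the text were the 5 lowest and 5 highest called in each treatment and baseline comparison, the 3 lowest and highest in the others, those called against the majority, the 3 brightest and 3 dimmest, the 3 nearest 0 in AML Dox, a fixed set (Mrpl12, Mrps12, Mrpl58, Mrps36 and the S18 family) and the 3 list genes with the smallest p; a few others were named after their values were seen. Replicate numbers did not pair arrays (40 same-number pairs, correlations of deviations -0.114 to 0.104), so no block was used.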

Additional observations from a re-analysis of the deposited data

Results flagged for a closer look

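Several genes responded differently to Dox in AML and LSK cells by the test of the difference itself, and are listed here for that reason. The AML minus LSK response was -2.45 for Mrps18b, -1.82 for Mrps10 and -1.71 for Mrpl12 on the log2 scale, and 0.67 for Mrps25, 0.62 for Mrpl48 and 0.50 for Mrpl1. For Mrpl1, LSK Control replicate 1 was at 5.91 and the other LSK Control arrays at 5.38 and 5.42. For the compound cocktail the corresponding values were 0.83 for Mrps31, 0.76 for Mrps17, 0.72 for Mrpl16 and -0.64 for Mrps36, which is close to the filter level. These rest on 2 LSK Compound arrays, for which the compounds and the animals cannot be told apart.

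The LSK Compound array left out of the fit was read beside its group as data outside the comparisons. On it, 65 of the 71 genes lay below all 3 LSK Control arrays and 3 lay above them, at a median level of 4.23, against 5.83 and 5.70 on the other LSK Compound arrays. The median over all genes tested was 3.98, against 4.16 and 4.14. Values on the whole array were less spread, with an SD of 1.45 against 2.05 and 2.04. The corresponding count over all genes was not made, so nothing particular to the set is read from these counts.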

How the results depend on the processing

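The lower levels in AML Dox held under the alternatives run: with the left-out array in the fit 39 genes were lower, and leaving out single arrays gave 55 to 58. Including the left-out array cut the calls over all genes in each comparison. Lower calls over all genes went from 4183 to 2208 in AML Dox and from 2313 to 748 in AML Control against LSK Control. They went from 1367 to 131 in the compound response difference. Most other results of the set moved too. AML Compound then had 0 genes lower and 0 higher, LSK Dox 0 lower, AML Control against LSK Control 0 lower and 1 higher, AML Dox 1 higher, and AML Dox against AML Compound 25 lower and 1 higher. The Dox response difference had 8 lower and 1 higher. The compound response difference had 0 lower and 0 higher at a median of 0.42. LSK Compound had a median of -0.69, and LSK Dox against LSK Compound 0 lower and 5 higher at a median of 0.54, with Mrpl38 and Mrpl45 reversed to 0.0476 and 0.0870.

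With only the groups compared in a fit, 1 gene was higher in AML Compound. Quantile normalization gave 4 higher in AML Control against LSK Control. Centring arrays on their median gave medians of -0.92 in AML Dox, -0.64 in AML Dox against AML Compound and -0.74 for the Dox response difference, with 2 higher. Averaging all probe sets of a gene gave -0.51 and -0.60 for the last pair of comparisons. The 60th percentile filter gave -0.90 in AML Dox. The compound response difference had 0 lower with that filter or no filter and 2 with an intensity trend, under which 1 gene was higher in LSK Dox. With the replicate number as a block the compound response difference had 0 lower, AML Dox 56 lower and LSK Compound 31; 3 of 17 arrays correlated best with their own number. The causes of these shifts were not tested.

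Leaving out single arrays gave 1 to 2 genes higher in AML Compound, 5 to 9 lower and 3 to 9 higher in AML Control against LSK Control, 9 to 16 lower in LSK Dox, 20 to 38 lower in LSK Compound and 5 to 11 higher in LSK Dox against LSK Compound. Medians ran between -0.91 and -0.83 in AML Dox and between -0.61 and -0.52 in AML Dox against AML Compound. The Dox response difference had medians of -0.71 to -0.59 with 2 to 5 higher, the lowest count without AML Control replicate 1, AML Dox replicate 1 or LSK Dox replicate 3. The compound response difference had medians of 0.0598 to 0.145 with 3 to 8 higher and 0 to 1 lower. Among repeats for single named genes, 4197 gave the same call, 360 lost it and 2 reversed.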
